A study of Mus musculus with 4 samples.

Results

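The alarmin receptors of group 2 innate lymphoid cells (ILC2s) were examined through 8 genes, the chains Il1rl1 and Il1rap (IL-33 receptor), Il18r1 and Il18rap (IL-18 receptor), Il17rb (IL-25 receptor), Crlf2 and Il7r (TSLP receptor, the latter also the IL-7 receptor chain), and the adaptor Myd88. They were chosen by gene symbol, and all 8 had a column among the 17187 gene columns of the deposited table. All 8 also passed the filter for testing, a mean normalised read count of at least 10 over the 4 libraries, as did 13010 genes in all. The study sorted ILC2s from lungs of BALB/c mice, described as WT, and kept them in culture for 18 hours. The 2 isotype libraries came from cells given an isotype control antibody, and the 2 anti-CD226 libraries from cells given an antibody to the costimulatory receptor CD226, with a stated dose of 5 µg/mL whose wording may or may not cover the isotype control. The design text speaks of treated mice and the table calls the controls PBS, and the sample labels were followed here. Neither the age of the mice nor any cytokine added to the culture is stated in the sources used here, and nothing says whether replicates were separate animals or cultures, so the p-values reflect only the spread between these libraries.

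ILC2s carry no antigen receptor and are switched on by alarmins, cytokines that damaged or stimulated epithelium releases. IL-33 binds the chain encoded by Il1rl1 (ST2), which then pairs with the accessory chain encoded by Il1rap, and IL-18 uses a homologous pair encoded by Il18r1 and Il18rap. The intracellular TIR domains of both pairs recruit MyD88, which starts a kinase cascade towards NF-kB and MAP kinases. IL-25 binds the chain of Il17rb together with that of Il17ra, which recruit the adaptor Act1 instead. TSLP binds the chain of Crlf2 paired with that of Il7r, and IL-7 binds the latter paired with the common gamma chain of Il2rg, both acting through JAK kinases and STAT5.

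The libraries held an estimated 12433729 to 17847327 reads, where the value of 1 read was between 0.773 and 1.11 normalised counts. Of the 14 ILC2 markers checked, all had a column, and Gata3, Il5, Il13, Rora, Icos, Klrg1, Arg1, Hlf and Id2 were at 921 or more in every library. The 921 was that of Il13 in anti-CD226 replicate 2, against 2725 to 3419 elsewhere. Lower were Areg at 614 to 889, Gfi1 at 429 to 549 and Thy1 at 76.0 to 194, and the members Il1rl1 and Il7r are given below. Mast cells and basophils can also carry Il1rl1. Of their 10 markers 9 had a column, with Kit, which ILC2s may also express, at 768 to 1350, and the others far lower, among them the defining Cpa3 at 37.1 to 100, Mcpt8 at 15.4 to 34.8 and Ms4a2 at 0 to 6.61. Of 12 T cell markers 8 had a column, with Cd3d at 1.10 to 5.53, Trac at 2.06 to 4.64, Foxp3 at 11.5 to 36.0 and Cd3e at 51.5 to 79.4. Higher were Cd3g at 215 to 325, Lef1 at 308 to 545, Trbc1 at 602 to 948 and Trbc2 at 1340 to 2370. Of 10 markers of natural killer cells and ILC1s only Gzma and Prf1 had a column, at 106 to 290 and 16.2 to 23.1. The summed level of the 8 macrophage markers in the table was 59.8 and 78.5 in the isotype libraries and 124 and 977 in the anti-CD226 libraries, the last being replicate 2. Chil3 alone gave 784 of that 977. The libraries also differed in their tie to transcript length. Deviations of genes from their 4-library means were compared with length by Spearman's rho across 12737 genes. The rho was 0.52 in anti-CD226 replicate 2, against -0.01, -0.47 and -0.35 in isotype replicates 1 and 2 and anti-CD226 replicate 1. These deviations share their mean, so the 4 values depend on each other. In such bulk samples fewer cells of a type and less RNA per cell cannot be told apart.

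Of the 8 genes, 3 are neighbours on chromosome 1 (GRCm38, plus strand), with Il1rl1 from 40429570 to 40465415, Il18r1 from 40465552 to 40500854 and Il18rap from 40515362 to 40551705. Only 136 bases separate the end of Il1rl1 from the start of Il18r1, and 14507 bases separate Il18r1 from Il18rap. The others are scattered, with Il1rap on chromosome 16 from 26581704 to 26730117 (plus), Il17rb on chromosome 14 from 29996135 to 30008896 (minus), Crlf2 on chromosome 5 from 109554709 to 109558993 (minus), Il7r on chromosome 15 from 9505788 to 9530176 (minus) and Myd88 on chromosome 9 from 119335934 to 119341411 (minus). Of the annotated starts of Il1rl1, 2 are taken up here. In the annotation the distal one begins a transcript of 337 codons, the length of the secreted form of ST2. The proximal one begins a transcript of 567 codons, the length of the membrane form. GENCODE lists each length 2 times among its 5 coding transcripts, the further 3 starting at 40436589 (65 codons), 40439776 (337 codons) and 40440628 (567 codons), and counts per gene do not separate them. Transcripts of both lengths thus start at or near the proximal start, and neither start is assigned to a form here.

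The sequences before these starts are shown because the 3 neighbouring genes differ so much in level, as given below, and Il1rap is added as the partner of Il1rl1 from another chromosome. They are from RefSeq (GRCm38.p6), 5′ to 3′ on the gene's strand, cut to the stretch outside annotated exons. Capitals mark matches, on either strand, to the words of GATA factors (AGATAA, and the variant TGATAA), of STAT factors (TTCNNNGAA) and of the AP-1 factors (TGANTCA), which do not overlap each other here. The line for the gap is the whole interval between Il1rl1 and Il18r1.
Il1rl1 distal, chr1:40429320-40429569: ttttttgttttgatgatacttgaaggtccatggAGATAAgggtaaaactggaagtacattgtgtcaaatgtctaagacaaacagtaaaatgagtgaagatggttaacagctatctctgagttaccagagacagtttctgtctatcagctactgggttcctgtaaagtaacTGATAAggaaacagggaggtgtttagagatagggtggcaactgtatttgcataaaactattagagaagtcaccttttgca
Il1rl1 proximal, chr1:40439379-40439626: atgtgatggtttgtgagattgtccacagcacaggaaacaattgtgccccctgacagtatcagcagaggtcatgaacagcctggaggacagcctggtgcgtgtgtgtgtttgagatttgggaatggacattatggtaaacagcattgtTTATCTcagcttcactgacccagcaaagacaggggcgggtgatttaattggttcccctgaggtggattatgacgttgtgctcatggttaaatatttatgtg
gap, chr1:40465416-40465551: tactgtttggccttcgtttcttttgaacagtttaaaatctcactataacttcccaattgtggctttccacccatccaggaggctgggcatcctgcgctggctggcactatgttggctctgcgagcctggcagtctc
Il18r1, chr1:40465811-40465969: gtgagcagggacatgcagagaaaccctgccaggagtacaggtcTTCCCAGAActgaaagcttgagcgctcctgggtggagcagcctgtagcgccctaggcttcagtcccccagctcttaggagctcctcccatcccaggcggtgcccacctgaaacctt
Il18rap, chr1:40515112-40515361: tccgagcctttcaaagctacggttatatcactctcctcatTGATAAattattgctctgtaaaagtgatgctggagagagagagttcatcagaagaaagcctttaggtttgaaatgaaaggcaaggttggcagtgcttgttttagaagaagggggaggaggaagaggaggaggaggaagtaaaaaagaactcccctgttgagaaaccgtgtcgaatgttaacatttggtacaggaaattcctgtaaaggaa
Il1rap, chr16:26581455-26581703: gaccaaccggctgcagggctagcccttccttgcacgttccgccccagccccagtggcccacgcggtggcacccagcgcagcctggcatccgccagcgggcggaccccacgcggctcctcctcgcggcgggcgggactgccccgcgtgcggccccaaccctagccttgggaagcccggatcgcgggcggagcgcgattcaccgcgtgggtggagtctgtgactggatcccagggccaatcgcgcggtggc

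In the full window of 250 bases before each start, the distal Il1rl1 start had 2 GATA words, the proximal start 1 and Il18rap 1, whereas none stood in the windows of Il18r1, Il1rap, Crlf2, Il17rb, Il7r and Myd88. At least 1 GATA word occurs in 16.6% of all 32851 such windows and at least 2 in 2.72%. The STAT word occurred 2 times before the start of the Il18r1 transcripts of 537 codons (1 of them within an exon of other Il18r1 transcripts and so not shown), once before Il7r and once before Myd88, against at least 1 in 7.02% and at least 2 in 0.317% of all windows. The AP-1 word occurred only before Il17rb, against 6.75% of all windows. Base composition varied widely. The windows of Il1rap, Il17rb and Crlf2 were 74.4%, 72.0% and 71.6% G or C with 30, 27 and 24 CG steps, and those of Il1rl1 (distal), Il18rap and Il7r were 37.6%, 42.0% and 44.0% with 0, 4 and 1. Between them lay Myd88 (51.2%) and Il1rl1 proximal (46.4%), and the 3 windows of Il18r1 ran from 40.8% to 56.4%. The median window was 52.4% with 6 CG steps. These are matches of letters and no measure of binding.

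Il1rl1 was by far the most abundant of the 7 receptor chains, and the 2 signalling partners of the IL-1 family differed in opposite ways. Its own accessory chain Il1rap was scarce beside it, whereas the accessory chain Il18rap was abundant beside a scarce Il18r1. Levels of different genes are compared per kilobase of the longest annotated transcript, since longer transcripts give more reads. For Myd88 this is a transcript with a retained intron (2458 bases, against 1960 for its longest coding one). For Il17rb it is one annotated for nonsense-mediated decay (2575 bases, against 2094). On this per-length scale, over all 4 libraries (SD, n = 4), Il1rl1 had 1630.0 ± 82.7, Myd88 604 ± 30.0, Il17rb 458 ± 48.3 and Il18rap 288 ± 23.1. Il7r followed at 244 ± 28.8, Crlf2 at 138 ± 21.4, Il1rap at 52.6 ± 10.9 and Il18r1 at 24.5 ± 4.56. Neighbours in this order had separate ranges except Il18rap and Il7r, whose ranges overlapped and whose means differed by 1.18-fold. The median of the 12737 tested genes with a length was 114 per kilobase, so Il1rap and Il18r1 lay below the middle of the transcriptome and the other members above it.

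**Figure D1:**
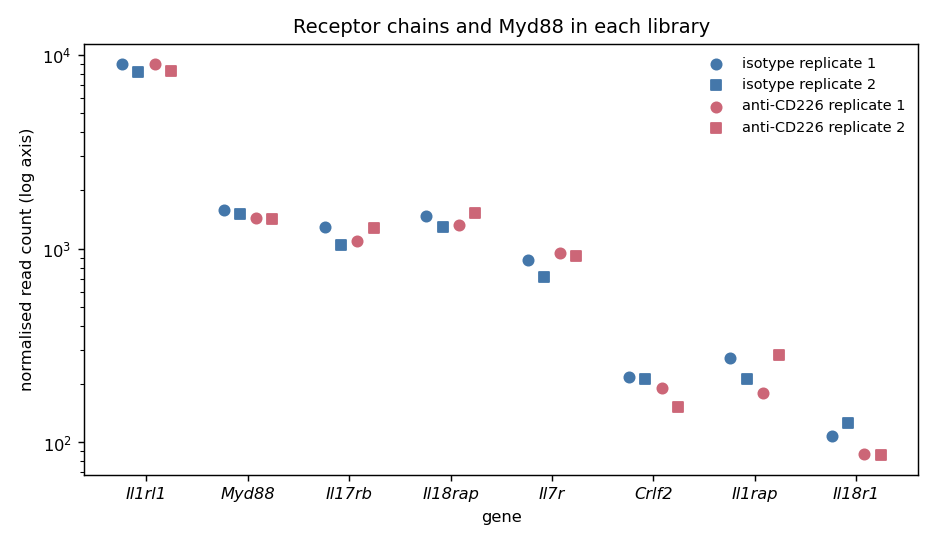
Normalised read counts of the 8 genes (log axis) in each of the 4 libraries, isotype in blue and anti-CD226 in red, with circles for replicate 1 and squares for replicate 2. The genes span from 86.0 (Il18r1, anti-CD226 replicate 2) to 9037 (Il1rl1, anti-CD226 replicate 1), and within each gene the 4 points lie close together on this scale.

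Il1rl1 alone made up 55.4% to 59.4% of the summed per-length level of the 7 chains in a library, and only 634 of the 12737 genes had a higher per-length mean. Il17rb made up 14.9% to 17.6%, Il18rap 9.44% to 11.1% and Il7r 7.65% to 9.34%. The remaining chains were minor, with Crlf2 at 3.83% to 5.70%, Il1rap at 1.39% to 2.22% and Il18r1 at 0.731% to 1.14%. These shares use the longest transcript only. The length assigned to a gene moves the levels, and the shares with them, because several members have annotated transcripts of unlike length. With the median coding transcript or with the coding length, the order of the 8 genes was the same, and with the merged length of all exons Il1rap and Il18r1 changed places at the bottom.

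**Figure D2:**
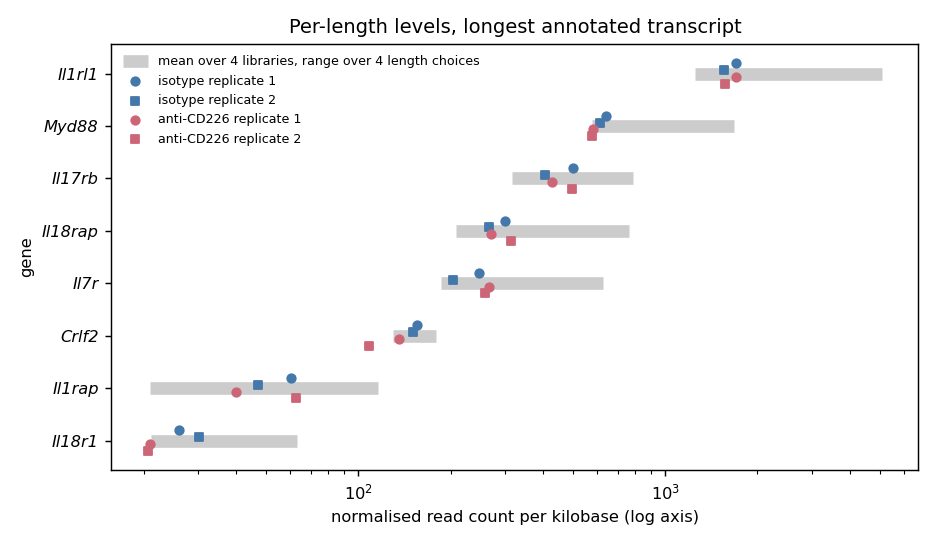
Normalised read count per kilobase of the longest annotated transcript (log axis) for each gene and library, with grey bars for the range of the mean over 4 choices of gene length. Il1rl1 stands first and Myd88 second under each choice, and only Il1rap and Il18r1 change places between choices. The grey bars overlap for Il1rap and Il18r1, for Il1rl1 and Myd88, and among Myd88, Il17rb, Il18rap and Il7r.

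The IL-33 receptor chains did not differ detectably between the groups, and they varied very differently among libraries. Il1rl1, the chain that binds IL-33, had 9004 and 8220 normalised reads with isotype (replicates 1 and 2), 9037 and 8308 with anti-CD226. Replicate 1 was the higher library in both groups, and the groups overlapped. The log2 difference, anti-CD226 minus isotype on log2(value + 1), was 0.01 (standard error 0.16, limma adjusted p = 0.996), its 95% interval running from a fold of 0.780 to one of 1.30. The sign of so small a difference turned under 3 of the 4 other scalings (upper quartile, TMM and quantile) and was -0.11 once each library's trend with transcript length was removed.

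Il1rap, the accessory chain that IL-33, IL-1 and IL-36 receptors share, had 273 and 213 normalised reads with isotype, 180 and 284 with anti-CD226. The anti-CD226 libraries held both its lowest and its highest value. Its log2 difference was -0.09 (standard error 0.27, limma adjusted p = 0.983), and it was 0.24 without anti-CD226 replicate 1 and -0.42 without anti-CD226 replicate 2. It rests on an estimated 175 to 276 reads a library, a counting error of 6.02% to 7.56%, while its highest value was 1.58 times its lowest. An antisense gene overlaps 552 exon bases of Il1rap, and without known strand handling their reads cannot be told apart.

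The IL-18 receptor held the member with the largest difference between the groups, which did not pass the test. Il18r1, which binds IL-18, had 108 and 126 normalised reads in isotype and 87.5 and 86.0 in anti-CD226 libraries. Both anti-CD226 values lay below both isotype values. The means were 117 ± 12.5 and 86.7 ± 1.09 (SD, n = 2), a log2 difference of -0.42 that did not pass (standard error 0.24, limma adjusted p = 0.982). The 95% interval ran from a fold of 0.510 to one of 1.09. It rests on an estimated 98 and 163 reads with isotype and 85 and 78 with anti-CD226, so that counting error alone was 7.83% to 11.3% and exceeded the anti-CD226 SD. Genes of its length decile had a median difference of 0.06, and with the length trend removed the difference of Il18r1 was -0.49. Without any 1 library it stayed between -0.53 and -0.32.

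Il18rap, the accessory chain that IL-18 signalling needs, had 1468 and 1301 normalised reads with isotype, 1323 and 1535 with anti-CD226, and the groups overlapped. Its log2 difference was 0.04 (standard error 0.17, limma adjusted p = 0.989), and it was -0.06 with the length trend removed as well as without anti-CD226 replicate 2. Per kilobase, Il18rap exceeded Il18r1 by between 8.79-fold and 15.2-fold in the 4 libraries, with means of 10.2-fold ± 1.94 in isotype and 14-fold ± 1.65 in anti-CD226 (SD, n = 2). Over the 4 length choices the mean excess ran from 6.63-fold to 12-fold, so that under each of them the chain that binds the cytokine was the rarer of the pair.

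The IL-25 receptor chain Il17rb had 1288 and 1047 normalised reads with isotype, 1101 and 1283 with anti-CD226. The 2 groups covered almost the same range. Its log2 difference was 0.03 (standard error 0.19, limma adjusted p = 0.992), turning to -0.08 without anti-CD226 replicate 2. The shared chain Il17ra, which also serves IL-17A receptors, stood at 1698 and 1241 against 1401 and 2061, with overlapping groups. The log2 difference of Il17ra was 0.23 (standard error 0.24, limma adjusted p = 0.982). It was -0.05 without anti-CD226 replicate 2 and 0.0008 without isotype replicate 2. Per kilobase Il17rb exceeded Il17ra by 2.41-fold ± 0.181 in isotype and 2.12-fold ± 0.347 in anti-CD226 libraries, and over the 4 length choices the mean excess ran from 1.30-fold to 2.81-fold. Exons of Il17rb share 141 bases with Actr8 on the opposite strand, which stood at 824 to 861 in all libraries.

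Both chains of the TSLP receptor had groups that did not overlap, as had 26.8% of all genes tested, and they went in opposite directions. Neither passed the test. Crlf2, which gives the receptor its specificity for TSLP, had 219 and 212 normalised reads in isotype and 192 and 152 in anti-CD226 libraries. Anti-CD226 replicate 2 was the lowest. The means were 216 ± 4.47 and 172 ± 27.9 (SD, n = 2), a log2 difference of -0.34 (standard error 0.21, limma adjusted p = 0.982), or -0.17 without that library. The transcript of Crlf2 is short, 1405 bases, and the 1274 genes of its length decile had a median difference of -0.14 and a median deviation of -0.23 in anti-CD226 replicate 2, where Crlf2 deviated by -0.33. With the length trend removed the difference of Crlf2 was -0.23. How much of it comes with transcript length was not tested further.

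Il7r, the partner of Crlf2 and a defining surface chain of innate lymphoid cells, had 877 and 719 normalised reads with isotype, 948 and 916 with anti-CD226. Both anti-CD226 values were the higher. Its log2 difference was 0.23 (standard error 0.18, limma adjusted p = 0.982), and without isotype replicate 2, the lowest library, it was 0.09. Il2rg, the common gamma chain, was at 8345 and 9249 against 8889 and 11160, with overlapping groups (log2 difference 0.18, standard error 0.18, limma adjusted p = 0.982), or 0.02 without anti-CD226 replicate 2. A further annotated coding gene, Gm20489, shares 728 exon bases with Il2rg on the same strand. Per kilobase Il2rg exceeded Il7r by between 19.9-fold and 27.3-fold, and over the 4 length choices the mean excess ran from 13.4-fold to 33.5-fold.

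Myd88, the adaptor of the IL-33 and IL-18 receptors, had 1578 and 1507 normalised reads with isotype, 1435 and 1416 with anti-CD226. Both anti-CD226 values were the lower, though the gap was narrow. The means were 1542 ± 50.5 and 1426 ± 13.4 (SD, n = 2), 7.56% lower, with a log2 difference of -0.11 (standard error 0.16, limma adjusted p = 0.982). Over the 4 libraries the coefficient of variation was 4.97% for Myd88 and 5.07% for Il1rl1, and only 7.21% and 7.54% of all tested genes varied less. Il1rap and Il18r1 varied most among the members, with 20.8% and 18.6%, against a median of 15.4% over all genes tested. Exons of Myd88 share 290 bases with Acaa1a on the opposite strand, which had 642 and 685 with isotype and 584 and 527 with anti-CD226, and their reads cannot be told apart there.

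None of the 8 genes passed the adjusted p of 0.05, as was true of all genes (0 of 13010, 0%, the smallest adjusted p being 0.982). None had an unadjusted p below 0.05 either, against 308 genes in all (2.37%), and the smallest among the members was that of Il18r1. The groups did not overlap for 4 of the 8 (Il18r1, Crlf2 and Myd88 lower, Il7r higher), against 26.8% of all genes tested (13% lower, 13.8% higher). With so few members this count is a description. By direction 4 were higher and 4 lower, the median log2 difference being -0.04 against 0.01 over all genes. The split was 3 and 5 with upper quartile, TMM or quantile scaling, where Il1rl1 turned. With single libraries left out it ran from 5 and 3 (without isotype replicate 1) to 1 and 7 (without isotype replicate 2), and was 2 and 6 without anti-CD226 replicate 2. No member passed the adjusted p in any of the 16 alternative fits, the smallest being 0.158 for Crlf2 without anti-CD226 replicate 1, a fit that calls 1633 genes and assumes the lone anti-CD226 library to vary like the isotype libraries.

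**Figure D3:**
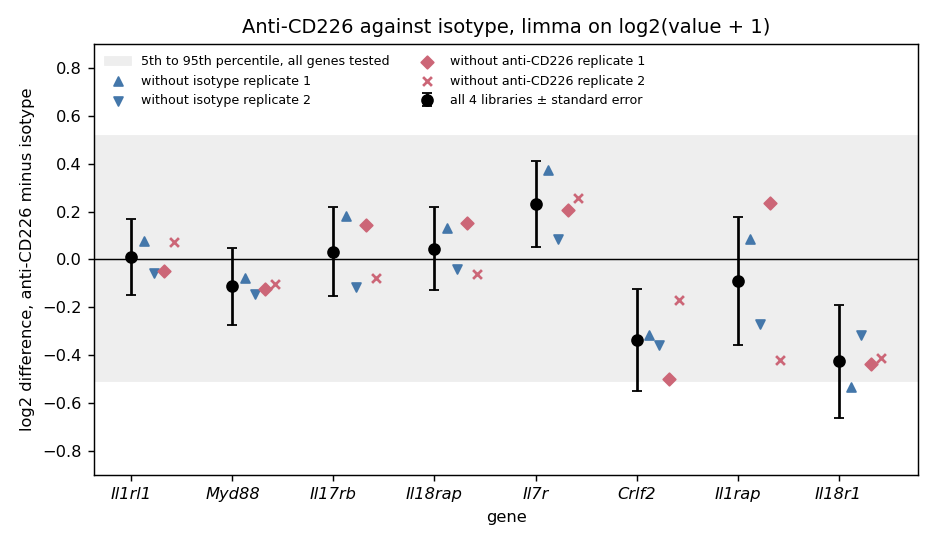
Log2 difference of each gene, anti-CD226 minus isotype, with its standard error (black, all 4 libraries) and the value with each library left out (coloured symbols), over a grey band from the 5th to the 95th percentile of all tested genes (-0.51 to 0.51). Il18r1 and Crlf2 stay below 0, as does Myd88, and Il7r stays above 0 whichever library is left out, whereas Il1rl1, Il17rb, Il18rap and Il1rap fall on both sides.

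Ratios of 2 chains within a library do not depend on how the libraries were scaled, but a library's trend with transcript length stays in them. In 8 pairs compared, the exact permutation test of 2 libraries against 2 (two-sided) cannot give a p below 0.33, which is 0.667 after adjustment over the pairs, so no pair could be called. The groups of 4 of the 8 pairs did not overlap. The share among ratios of other genes was not computed, and the 26.8% of all genes tested is a share of single genes. Each of the 4 pairs holds a member whose own groups did not overlap, so they add no separate result. The ratio of Crlf2 to Il7r was 0.628 and 0.745 per kilobase in the isotype and 0.509 and 0.418 in the anti-CD226 libraries, a log2 difference of -0.57 that stayed between -0.71 and -0.43 with any 1 library left out. Its mean over all libraries ran from 0.292 to 0.712 over the length choices. With the length trend removed the log2 differences of the single genes were -0.23 for Crlf2 and 0.19 for Il7r, and their ratio was not tested that way. The ratio of Il18r1 to Il18rap was 0.0868 and 0.114 against 0.0778 and 0.0658, a log2 difference of -0.47 (between -0.66 and -0.27). Relative to Il1rl1, the transcript of Il18r1 was lower in anti-CD226 libraries, Il1rl1 exceeding it by 65.2-fold and 51.2-fold against 81.0-fold and 75.8-fold per kilobase. The log2 difference of Il1rl1 itself was 0.01, so this ratio repeats the difference of Il18r1. Il1rl1 exceeded Myd88 by 2.65-fold and 2.53-fold against 2.92-fold and 2.72-fold, and over the length choices the mean excess ran from 2.18-fold to 3.04-fold.

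The ratio within the IL-33 receptor overlapped between the groups. Il1rl1 exceeded Il1rap by 28.1-fold and 32.9-fold in the isotype and by 42.8-fold and 24.9-fold in the anti-CD226 libraries, where the 2 replicates bracket the controls. Over the 4 length choices the mean excess ran from 32.2-fold, with the longest transcript, to 62.2-fold. The ratio of Il1rl1 to Il17rb, the IL-33 against the IL-25 binding chain, was 3.39 and 3.81 against 3.99 and 3.15, with a log2 difference of -0.02 and a mean of 3.59 to 6.50 over the length choices. For both pairs the sign of the difference turned when single libraries were left out.

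Within 478 kilobases of chromosome 1, 6 genes of the IL-1 receptor family lie in a row, and their levels spanned from near 0 to above that of Il1rl1. Il1r2, a decoy receptor that binds IL-1 without signalling, stood at 4741 and 5550 in the isotype and 4591 and 4568 in the anti-CD226 libraries. Both anti-CD226 values were the lower, with a log2 difference of -0.16 (standard error 0.16, limma adjusted p = 0.982). Per kilobase it had 3427 ± 327 (SD, n = 4), above the 1630.0 of Il1rl1. Il1r1, the signalling receptor for IL-1, stood at only 1.11 to 9.92 normalised reads, around the level of 3 reads, the upper limit that a count of 0 allows (2.32 to 3.32). Il1rl2, the IL-36 receptor chain, stood at 26.3 to 57.5. Read in order along the plus strand, Il1r2, Il1r1, Il1rl2, Il1rl1, Il18r1 and Il18rap were thus high, near 0, low, high, low and intermediate.

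**Figure D4:**
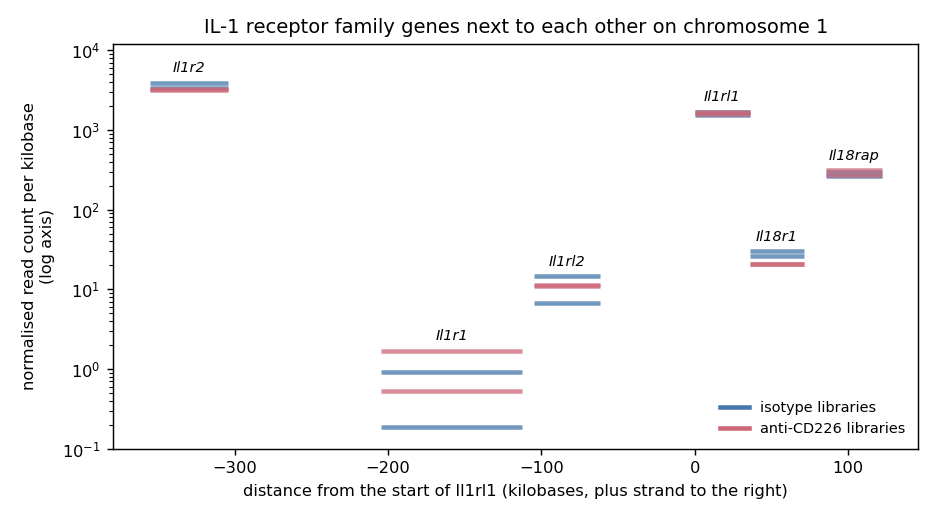
Normalised read count per kilobase (log axis) of 6 IL-1 receptor family genes against their distance from the start of Il1rl1 in kilobases; each horizontal line is 1 library over the span of the gene, isotype in blue and anti-CD226 in red. Il1rl1 and Il18r1 lie side by side with means of 1630.0 and 24.5, and Il1r1 has the lowest level.

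Ligand transcripts were scarce among those followed, apart from Hmgb1. Of 8 ligand genes listed, 3 had a column, and the other genes (Il25, Tslp, Il18, Il7 and Il1b) were not analysed here. Il33 stood at 6.63 and 1.55 in the isotype and 2.06 and 12.1 in the anti-CD226 libraries, and Il1a at 0 and 0 against 2.06 and 7.72, a few reads each. Hmgb1, mainly a chromatin protein that can be released as an alarmin, was at 15734 to 20522, with a log2 difference of -0.06 (limma, adjusted p = 0.987) whose sign turned without anti-CD226 replicate 2.

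Genes that carry the signal of MyD88 onwards gave no call. Of 25 genes listed for the cascade from the IRAK kinases to the IKK complex and MAP kinases, 23 were tested, of which 18 were higher and 5 lower in anti-CD226, with a median log2 difference of 0.07 against 0.01 for all genes and 0 past the adjusted p. That split rested on anti-CD226 replicate 2, since without it 10 were higher and 13 lower, and 12 and 11 once the length trend was removed. It was 15 and 8 with upper quartile scaling. Chuk, the IKK alpha kinase, had the smallest p, with 1332 and 1273 against 1578 and 1736 (log2 difference 0.35, limma adjusted p = 0.982). Tab3, a subunit of the TAK1 kinase complex, stood at 159 and 152 against 187 and 203, and the ubiquitin ligase Traf6 at 823 and 640 against 769 and 1038. The groups of Chuk and Tab3 did not overlap, and those of Traf6 did. In the whole list 3 of the 23 genes had groups that did not overlap, against 26.8% of all genes tested. The kinases Irak1 and Irak4, which bind MyD88 directly, stood at 1361 to 1472 and at 366 to 402.

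The 12 decoys and brakes of IL-1 family signalling were all tested, 7 higher and 5 lower, with a median of 0.12 that was -0.04 without anti-CD226 replicate 2. Tnfaip3 (A20), the ubiquitin editing enzyme that restrains NF-kB, stood at 263 and 221 in the isotype and 312 and 431 in the anti-CD226 libraries (log2 difference 0.60, standard error 0.23, limma adjusted p = 0.982). Il1rn, which encodes the IL-1 receptor antagonist, was at 0 in both isotype libraries, against 2.06 and 45.2 with anti-CD226 (limma adjusted p = 0.982). Tnfaip3 and Il1rn were the 2 of the 12 with an unadjusted p below 0.05, against 2.37% of all genes. The library with 45.2 is anti-CD226 replicate 2, in which the macrophage markers Chil3 and Lyz2 stood at 784 and 51.8. There Cd68, Mpeg1 and Itgam were also above both isotype libraries. Adgre1 and Apoe were not, and Csf1r stood at 2.62, below the level of 3 reads. In anti-CD226 replicate 1, Lyz2 (8.24), Cd68 (55.6), Mpeg1 (4.12) and Itgam (19.6) were likewise above both isotype libraries. Chil3 (16.5), Adgre1, Apoe and Csf1r were not above both in that library. The part of such cells in the 45.2 of Il1rn was not tested. Without anti-CD226 replicate 1, a fit with a lone anti-CD226 library, the log2 differences of Tnfaip3 and Il1rn were 0.84 and 5.53. Il18bp, the soluble IL-18 antagonist, stood at 24.3 and 11.6 against 34.0 and 22. Sigirr, an inhibitory member of the IL-1 receptor family, was at 1330 to 1622, close to Myd88 in read count.

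Of the 5 other IL-1 and IL-17 receptor family chains tested, 2 were higher and 3 lower (median -0.11), and Il17re stood at 34.3 and 11.6 against 5.15 and 19.8. Of 4 other TIR adaptors, 3 were higher and 1 lower (median 0.07, -0.09 without anti-CD226 replicate 2). Among them Pik3ap1, which links Toll-like receptors to PI3-kinase, stood at 769 and 668 against 683 and 1131, Tirap, the bridging adaptor of Myd88, at 140 and 152 against 135 and 115, and Ticam1 at 224 and 241 against 274 and 219. Of the 4 adaptors, only Tirap had groups that did not overlap, against 26.8% of all genes tested. Of 8 adaptors of the IL-25 receptor, 5 were higher and 3 lower (median 0.12, 0.03 with the length trend removed), including Act1, encoded by Traf3ip2, with 399 and 372 against 441 and 451, and Traf4 with 261 and 297 against 247 and 229. None passed the adjusted p. The chains Il17ra, Il2rg and Il6st, listed together as partner chains, were all higher on average. Il6st (gp130), the signalling chain of IL-6 type receptors and not of those examined here, stood at 243 and 113 against 174 and 355. Its log2 difference of 0.58 was 0.07 without anti-CD226 replicate 2 and 0.03 without isotype replicate 2.

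For signalling of the TSLP and IL-7 receptors, 12 of 15 listed genes were higher and 3 lower (median log2 difference 0.18), with 0 past the adjusted p. Among the 12 is Il2rg, itself a chain of the IL-7 receptor and given above. Without anti-CD226 replicate 2 the split was 7 higher and 8 lower, and the median -0.01. Jak1, the kinase bound to the chain of Il7r, stood at 9157 and 7240 against 8241 and 11700 and Stat5a at 762 and 687 against 801 and 908. Ptpn11, the phosphatase SHP-2, stood at 774 and 739 against 601 and 630. The groups of Stat5a and Ptpn11 did not overlap, and those of Jak1 did. In the whole list 3 of the 15 genes had groups that did not overlap, against 26.8% of all genes tested. Of 12 JAK-STAT feedback genes, 4 were higher and 8 lower (median -0.06), with Cish, an induced STAT5 target, at 6900 to 8568 and Socs1 at 6450 to 7475 in all libraries. Pias1, a SUMO ligase, had 883 and 794 against 959 and 1119, with groups that did not overlap and a log2 difference of 0.31. The phosphatase gene Ptpn6 (SHP-1) had 788 and 842 against 696 and 637, with groups that did not overlap, and Socs5 had 82.9 and 99.7 against 60.7 and 84.9, with groups that did. None of the 3 passed (limma, adjusted p = 0.982 for each). Among all 12 feedback genes, 3 had groups that did not overlap, against 26.8% of all genes tested.

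**Figure D5:**
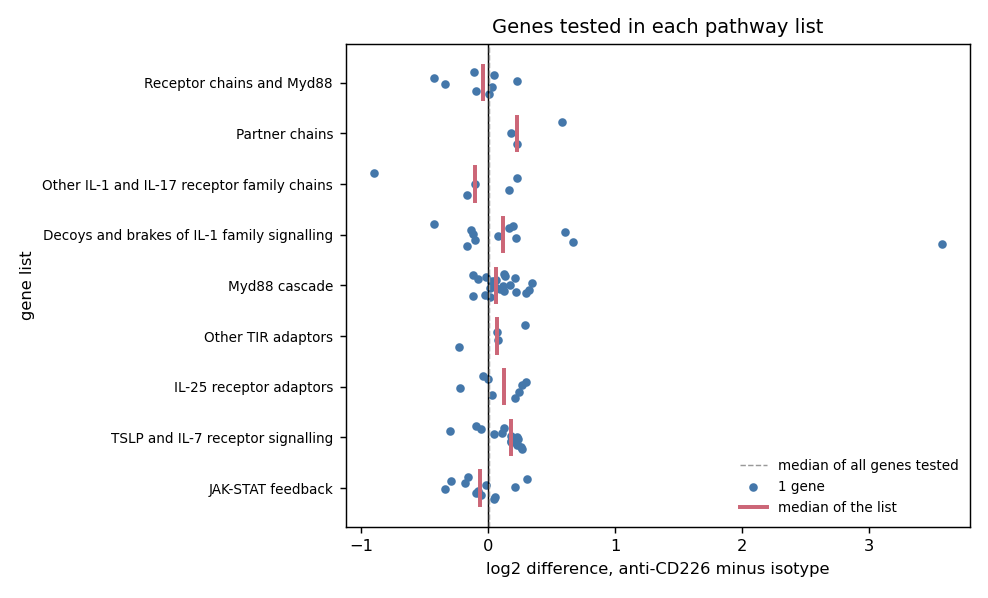
Log2 difference, anti-CD226 minus isotype, of each tested gene (blue points) in the 8 genes and in the pathway lists with at least 3 tested genes, with the median of each list in red and that of all tested genes as a dashed line. Medians lie between -0.11 and 0.23, and the point at 3.57 is Il1rn, whose isotype values are 0, so that its position depends on the pseudocount.

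The members did not follow 1 pattern over the 4 libraries. By Euclidean distance between log2 profiles centred on their means, the nearest members were Il17rb and Il18rap (0.090), both highest in isotype replicate 1 and anti-CD226 replicate 2, and next Il1rl1 and Myd88 (0.150). The farthest were Il1rap and Crlf2 (0.771). Among 10337 genes with a mean of at least 50, the nearest to Il1rl1 were Zfp64, Dcaf4 and Cdk13 (distances 0.013, 0.015 and 0.019), to Il17rb Sphk2, Med24 and Dgkz (0.017, 0.029 and 0.029), and to Myd88 Xbp1, Dusp5 and Pgs1 (0.0098, 0.023 and 0.025). With 4 libraries and so many genes, the distances are given as description.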

How the data were processed

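The 8 genes, the gene lists and the rules for naming genes were chosen with earlier results of these data known. The tools named in the submitters' processing notes are Partek 10.0, STAR 2.7.8 and DESeq2, with the build mm10. Annotation, counting tool and strand handling are not given in the sources used, and per the labels' protocols cDNA came from a low-input kit. The values the authors deposited are normalised signal, not whole counts: between 73.5% and 75.1% of values, leaving out the highest, were whole multiples of 1 step per library (tolerance 0.02), so estimated reads are a value divided by that step and no count model was run. Reads of amplified cDNA are not independent molecules, so counting errors and floors cover counting only. Table rows matched to no sample numbered 0. Of the columns, 160 were checked singly for their unit.

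Genes with a mean of 10 or more were tested with limma 3.58.1 (R 4.3.3) on log2(value + 1) with a mean-variance trend and Benjamini-Hochberg adjustment over all genes, two-sided, with 2 residual and 5.81 prior degrees of freedom; the script was tested on simulated data. Such fold changes understate those of low genes. Lengths and positions are from GENCODE M21 (GRCm38, which mm10 denotes) and were found for 97.5% of genes. The named genes were the 8 members, Il17ra and Il2rg, the 3 genes of smallest p in each list, the 3 nearest profiles of Il1rl1, Il17rb and Myd88, and ligands and markers by level. Sigirr, Irak1, Irak4, Cish, Socs1, Jak3, Traf3, the overlapping genes and the chromosome 1 neighbours were named after their values were seen. Alternatives covered pseudocounts, filters, scalings, trend, length, blocks and left-out libraries.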

Additional observations from a re-analysis of the deposited data

How the results depend on the processing

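The replicate numbers do not pair the libraries by any label, and deviations of same-numbered libraries from their group means correlated at -0.24 over 13010 genes. With the replicate number as a block 20 genes were called, with crossed pairs, an alternative added after seeing the data, 61, and without a block 0. With each library left out the number of genes called ran from 12 to 1633. The cause was not tested. The block changed no call among the 8 genes.

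The log2 difference of Il1rl1 was -0.013 with upper quartile scaling, -0.0059 with TMM scaling, -0.011 with quantile normalization and -0.11 with the length trend removed, where that of Il18rap was -0.056. With each library left out, Il1rl1 ran from -0.055 to 0.076, Il1rap from -0.42 to 0.24, Il17rb from -0.12 to 0.18, Il18rap from -0.063 to 0.15, Il17ra from -0.051 to 0.51, Hmgb1 from -0.25 to 0.14, Pik3ap1 from -0.071 to 0.66 and Ticam1 from -0.084 to 0.24. The log2 difference in ratio ran from -0.29 to 0.49 for Il1rl1 to Il1rap, from -0.17 to 0.27 for Il7r to Il2rg and from -0.19 to 0.15 for Il1rl1 to Il17rb. Without anti-CD226 replicate 1, 7 of the 86 list genes passed the adjusted p (Il6st, Tnfaip3, Il1rn, Pik3ap1, Jak1, Jak3 and Traf3), against 12.6% of all genes in that fit.

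The median over the 8 genes ran from -0.13 to 0.081 with single libraries left out. List medians ran from -0.042 to 0.26 for decoys and brakes, from -0.0051 to 0.21 for the Myd88 cascade, from -0.093 to 0.21 for other TIR adaptors and from -0.081 to 0.0039 for JAK-STAT feedback. With no filter, medians were 0.52 for ligands and 0.16 for other family chains. With the length trend removed they were -0.00028 for decoys and brakes, 0.033 for IL-25 receptor adaptors (0.035 with a filter at a mean of 50) and -0.14 for JAK-STAT feedback (-0.089 with upper quartile scaling).

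Levels per kilobase moved with the length chosen. With the median coding transcript they were 3248 for Il1rl1, 568 for Il17rb, 43.0 for Il18r1 and 1269 for Myd88. With merged exons they were 1254 for Il1rl1, 20.9 for Il1rap, 318 for Il17rb, 186 for Il7r and 208 for Il18rap. With the coding length, added after seeing the data in place of the planned protein length, which was not run, they were 5081 for Il1rl1, 116 for Il1rap, 788 for Il17rb, 180 for Crlf2, 628 for Il7r, 63.3 for Il18r1, 764 for Il18rap and 1671 for Myd88. Depth limits Il18r1 most, then Crlf2 and Il1rap.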
